A study of Mus musculus with 8 samples.

Results

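The collagen genes of the mouse were compared between mammary cells of parous and virgin mice. They were taken as all probe sets of the array whose only gene symbol is that of a collagen chain, Col followed by the number of its type, a and the number of the chain, with the probe set of the highest mean kept for each gene. This gave 44 of the 19935 genes named on the array, from 46 of its 34760 probe sets, since Col6a5 and Col6a6 had more than 1. By class there were 11 chains of the fibrillar collagens, 6 of the type IV collagen of basement membranes, 9 of the fibril-associated collagens with interrupted triple helices (FACIT), 6 of type VI, 3 of the network-forming types VIII and X, 2 multiplexins, 4 transmembrane collagens and 3 others, among them the anchoring fibril chain Col7a1.

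Transcript levels came from 8 arrays of the type Affymetrix Mouse Gene 1.0 ST, 4 of parous and 4 of virgin mice, and each array held the RNA of cells pooled from the fourth mammary glands of 5 mice. All mice were of the inbred strain FVB/NHanHsd. Parous mice were put to mating when 42 days old and went through pregnancy, 21 days of lactation and a period of involution, which the sample labels give as 28 days and the methods as 40 days, and the virgin mice were of the same age and were kept in the same way. The lymph nodes were taken out, the glands were digested to single cells, adipocytes were spun off, erythrocytes lysed and fibroblasts depleted, the latter by attachment to plastic for 45 min. The suspension was not sorted, so it held luminal and basal epithelial cells together with whatever stromal cells remained. In such bulk samples fewer cells of a type and less RNA per cell cannot be told apart.

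Collagens are proteins whose chains wind into a triple helix, and many types are built from the products of several genes. Fibrillar collagens are made chiefly by fibroblasts and form the fibrils of the stroma, FACIT collagens sit on the surface of such fibrils, and type IV collagen forms the sheet-like network of the basement membrane on which the mammary epithelium rests. In the mammary gland the collagen matrix is laid down, degraded and rebuilt as the ducts branch and as the gland regresses after lactation.

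The genes of type IV collagen lie in head-to-head pairs, and the promoters of the 2 pairs on which the results for this class turn are shown for that reason. They are taken from RefSeq on the build GRCm38.p6, each window holding 250 bases before and 50 bases after the transcription start used for it, written 5′ to 3′ on the strand of its gene. Col4a1 (chr8:11312777-11313076, minus strand) and Col4a2 (chr8:11312555-11312854, plus strand) start 21 bases apart by the starts used for these windows. These starts, 11312826 for Col4a1 and 11312805 for Col4a2, make the 2 transcripts overlap at their 5′ ends. No base that the windows share lies before both starts. The 78 bases that both windows hold (chr8:11312777-11312854) are in capitals.
Col4a1: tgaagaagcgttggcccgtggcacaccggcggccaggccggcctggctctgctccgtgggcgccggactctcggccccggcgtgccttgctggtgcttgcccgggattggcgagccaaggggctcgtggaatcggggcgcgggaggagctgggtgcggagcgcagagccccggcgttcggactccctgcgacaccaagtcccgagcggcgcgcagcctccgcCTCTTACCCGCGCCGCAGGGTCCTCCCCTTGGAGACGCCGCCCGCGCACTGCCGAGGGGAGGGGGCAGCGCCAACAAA
Col4a2: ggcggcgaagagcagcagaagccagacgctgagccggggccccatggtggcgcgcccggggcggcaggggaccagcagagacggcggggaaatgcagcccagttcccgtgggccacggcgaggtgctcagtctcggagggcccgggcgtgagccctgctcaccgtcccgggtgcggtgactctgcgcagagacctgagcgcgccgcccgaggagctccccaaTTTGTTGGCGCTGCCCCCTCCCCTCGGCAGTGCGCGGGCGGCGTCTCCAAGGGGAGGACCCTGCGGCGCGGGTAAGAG
The windows of Col4a6 (chrX:141474027-141474326, minus strand) and Col4a5 (chrX:141475169-141475468, plus strand) share no base, with starts 1343 bases apart. Their capitals mark matches on either strand to any of 3 short motifs, the TATA box letters TATAAA, the box of nuclear factor Y written CCAAT, or the core of the GC box, GGGCGG.
Col4a5: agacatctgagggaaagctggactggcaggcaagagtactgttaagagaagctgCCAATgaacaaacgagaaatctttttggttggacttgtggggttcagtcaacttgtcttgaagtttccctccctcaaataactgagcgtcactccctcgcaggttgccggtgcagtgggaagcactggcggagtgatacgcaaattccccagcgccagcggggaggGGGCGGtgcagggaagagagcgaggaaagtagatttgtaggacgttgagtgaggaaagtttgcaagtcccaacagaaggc
Col4a6: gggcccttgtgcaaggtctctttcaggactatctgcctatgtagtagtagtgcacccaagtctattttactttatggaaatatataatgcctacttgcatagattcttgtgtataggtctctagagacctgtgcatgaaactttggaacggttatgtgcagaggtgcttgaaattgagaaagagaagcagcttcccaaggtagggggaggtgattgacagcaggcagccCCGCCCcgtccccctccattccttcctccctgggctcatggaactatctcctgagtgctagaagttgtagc
GC content was 74% in the Col4a1 window, 73.7% in that of Col4a2, 52.7% in that of Col4a5 and 48.3% in that of Col4a6. A window was found for 35 of the 44 collagen genes, 38 windows in all. Of these, 2, those of Col4a1 and Col4a2, overlapped a window on the other strand, as did 10.8% of all 32851 windows. On either strand, GGGCGG was found in 60.5% of the collagen windows and 35.7% of all, CCAAT in 34.2% and 37.4%, and TATAAA in 13.2% and 13.6%. These matches are descriptions of letters in the windows.

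The 8 arrays had median log2 values of 6.29 to 6.43 and correlated at 0.976 to 0.993. Epithelial genes were high on all of them, with Krt8, a luminal keratin, at log2 values of 13.04 to 13.37. Its groups did not overlap, at 13.04 to 13.14 on parous and 13.18 to 13.37 on virgin arrays. The difference was -0.17, and -0.11 without virgin replicates 2 and 4. Virgin replicates 2 and 4 stood apart in 11 proliferation genes, whose mean after centring each gene on its average over the 8 arrays was 1.42 and 1.99 on these 2 and between -1.02 and -0.22 on the others. Their part in the results on collagens was not tested. Differences without both are given beside the genes whose own difference is printed and whose groups were separated. The number of arrays limits the precision throughout.

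None of the 44 collagen genes passed the criteria for a difference, a linear fold over 1.5 with an adjusted p under 0.05 in limma, whereas 0.401% of all genes did, 0.181% higher and 0.221% lower in the parous arrays. Beside so small a share, 0 of 44 is not a result particular to collagens. The smallest adjusted p of limma among them was 0.137, for Col17a1. At an unadjusted p under 0.05, 2 collagen genes were higher and 6 lower in parous arrays, beside 6.54% and 7.49% of all genes, or 14.0% in either direction. All 4 parous values lay above all 4 virgin values in 1 collagen gene, Col4a6, and below them in 5, Col17a1, Col9a2, Col12a1, Col4a2 and Col16a1, together 6 of 44 beside 9.56% of all genes, of which 4.61% were higher and 4.95% lower. With 44 genes these counts are small, and they were not tested against the shares in all genes.

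The log2 differences between parous and virgin means ran from -0.59 to 0.40 over the 44 genes, with a median of -0.01 against 0.0024 over all genes. Of these differences, 18 were above and 26 below 0. Half-widths of the 95% confidence intervals had a median of 0.253 on the log2 scale, and the median size of the difference was 0.113. For most collagen genes the interval included 0, so a small change in either direction lay within it. The spread within groups was close to that of other genes, with a median residual SD of 0.158 against 0.149. In 7 of the 44 genes, Col24a1, Col4a4, Col19a1, Col6a4, Col8a2, Col10a1 and Col28a1, every value lay below the lowest of the array medians, 6.29. Those of Col4a3 also lay below the median of their own array. The values carry no detection call.

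**Figure D1:**
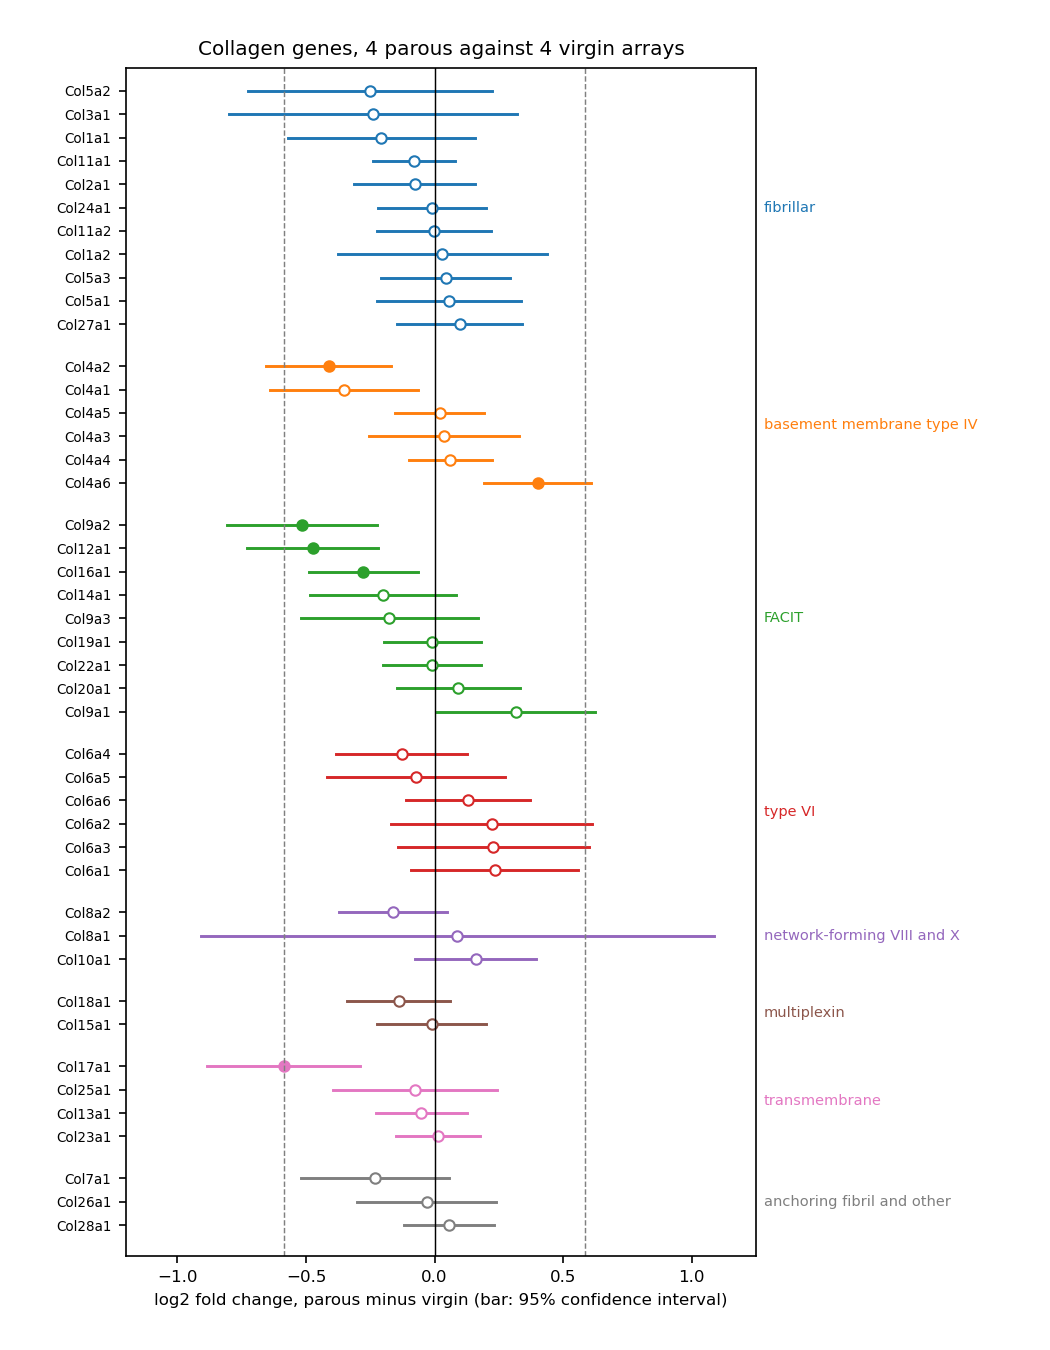
Log2 difference between the parous and virgin means (x axis) with its 95% confidence interval (bar) for each of the 44 collagen genes, grouped by class, from 4 arrays per group. Filled points mark the 6 genes whose groups did not overlap, dashed lines mark a linear fold of 1.5, and the point of Col17a1, at -0.59, is the only one at such a line.

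Among the fibrillar collagens no chain separated the groups, and the class median was -0.01 with differences from -0.25 to 0.10. Col1a1, the major chain of type I collagen, had log2 values of 9.97, 10.10, 10.30 and 10.63 on parous and 10.32, 10.43, 10.33 and 10.74 on virgin arrays. Its highest parous value exceeded 3 of the 4 virgin values, and the difference of -0.21 had a 95% interval of -0.57 to 0.16 (limma adjusted p = 0.689). Col3a1, the chain of type III collagen, stood at 8.84, 9.25, 9.54 and 9.84 on parous and 9.26, 9.48, 9.54 and 10.14 on virgin arrays. The difference was -0.24 with an interval of -0.80 to 0.32. Col5a2, a chain of the type V collagen that copolymerises with type I, was at 6.33, 6.55, 6.71 and 6.99 on parous and 6.53, 6.87, 6.75 and 7.44 on virgin arrays. This was a difference of -0.25 with an interval of -0.73 to 0.22, and the groups overlapped in all 3 genes.

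The fibrillar chains had much of their order over the arrays in common. Virgin replicate 4 held the highest virgin value in 11 of the 11 fibrillar genes, and parous replicate 4 the highest parous value in 10 of 11. The lowest parous value was that of replicate 1 in 8 of 11. This order was not confined to the class. Over all 44 collagen genes, the fibrillar ones included, virgin replicate 4 was the highest virgin array in 24. Parous replicate 4 was the highest parous array in 27 of the 44 and parous replicate 1 the lowest in 26. The mean of the centred fibrillar values was -0.25, -0.13, 0.04 and 0.23 on parous and -0.08, -0.04, -0.04 and 0.27 on virgin arrays.

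**Figure D2:**
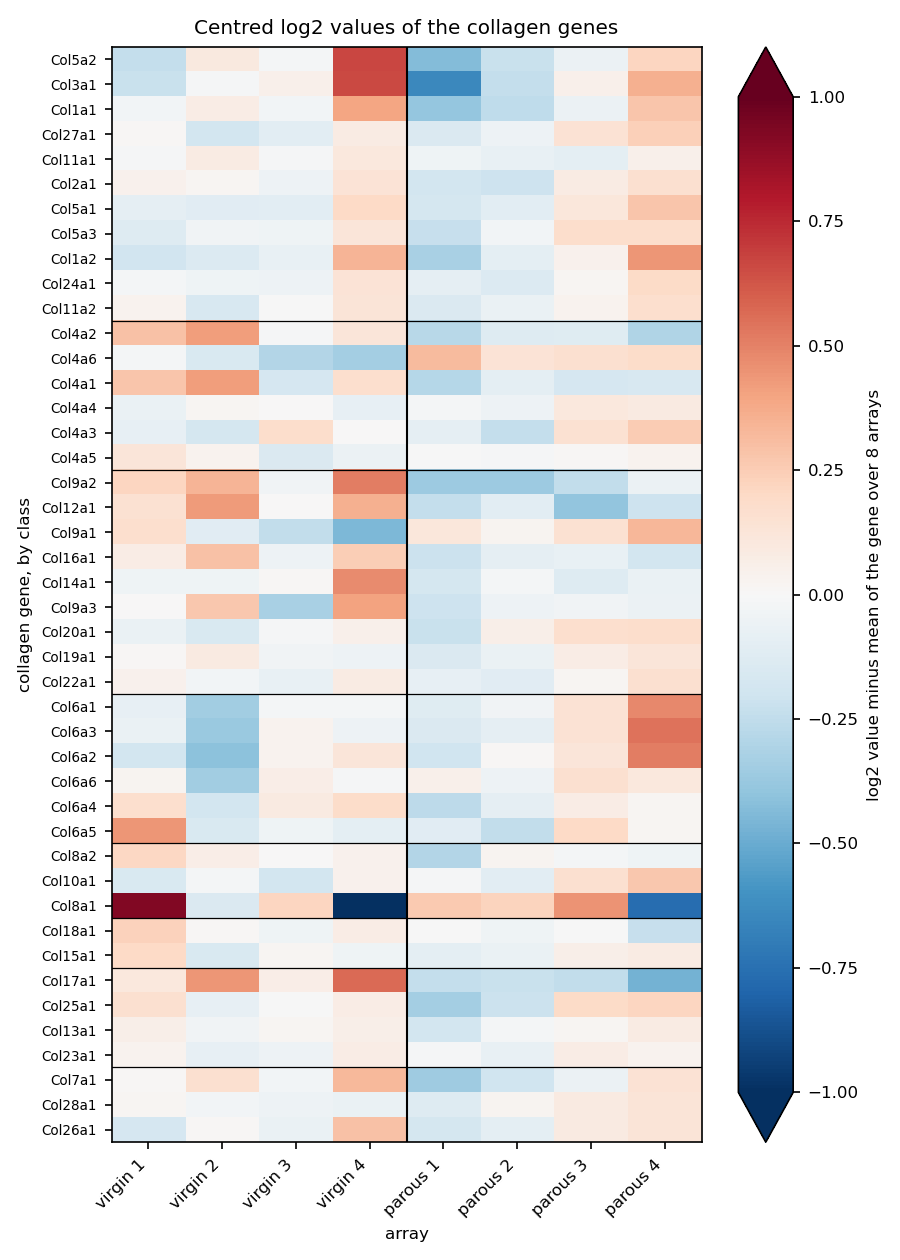
Centred log2 values (colour, log2 value minus the mean of the gene over 8 arrays) of the 44 collagen genes in rows, by class, on the 4 virgin and 4 parous arrays in columns. The fibrillar rows at the top are mostly darkest red on virgin replicate 4 or parous replicate 4, and Col8a1 has the strongest colours of all, from 10.64 on virgin replicate 1 to 8.54 on virgin replicate 4.

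In type IV collagen both chains of the common network had differences below 0 and the 4 chains of the rarer networks differences above 0, none past the criteria. Col4a1 and Col4a2 form the network found in nearly all basement membranes. Col4a2 was at 8.77, 8.91, 8.92 and 8.74 on parous and 9.33, 9.46, 9.03 and 9.16 on virgin arrays. Every parous value was below every virgin value, with a difference of -0.41 ± 0.106 (SE, n = 4 per group), an interval of -0.65 to -0.17 and a limma adjusted p of 0.194. Col4a1 was at 8.80, 8.99, 8.92 and 8.92 on parous and 9.36, 9.50, 8.91 and 9.25 on virgin arrays. Here virgin replicate 3 lay among the parous values and the others above them, and the difference was -0.35 ± 0.125 (interval -0.64 to -0.07, limma adjusted p = 0.336). Without virgin replicates 2 and 4 the difference was -0.35 for Col4a2 and -0.23 for Col4a1.

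Col4a6, which joins Col4a5 in a network of smooth muscle and some epithelia, was the 1 collagen gene with all parous values above the virgin ones. Its values were 7.71, 7.53, 7.55 and 7.58 on parous and 7.38, 7.24, 7.10 and 7.06 on virgin arrays. The difference was 0.40 ± 0.0913 (interval 0.19 to 0.61, limma adjusted p = 0.149), and it was 0.35 without virgin replicates 2 and 4. Col4a5, the head-to-head neighbour of Col4a6, was at 7.32, 7.31, 7.34 and 7.36 on parous and 7.44, 7.36, 7.18 and 7.27 on virgin arrays. Its parous values lay within the range of the virgin ones, with a difference of 0.02 and an interval of -0.15 to 0.19. Col4a3 and Col4a4, the other pair, differed by 0.04 and 0.06, with intervals that included 0, and both lay in the lower part of each array.

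The FACIT class had a median of -0.18, and 3 of its 9 genes had all parous values below the virgin ones, beside 4.95% of all genes. This count is small and was not tested. Col12a1, a chain on the surface of type I fibrils, was at 7.65, 7.77, 7.49 and 7.67 on parous and 8.04, 8.31, 7.89 and 8.24 on virgin arrays, a difference of -0.47 ± 0.112 (limma adjusted p = 0.157). Col9a2, of the type IX collagen best known from cartilage, was at 7.04, 7.04, 7.16 and 7.34 on parous and 7.62, 7.74, 7.37 and 7.91 on virgin arrays, a difference of -0.52 ± 0.127 (limma adjusted p = 0.175). Col16a1, which is found near basement membranes and on small fibrils, was at 7.21, 7.34, 7.35 and 7.24 on parous and 7.50, 7.71, 7.37 and 7.67 on virgin arrays, a difference of -0.28 ± 0.0929 (limma adjusted p = 0.308). In all 3 genes virgin replicate 3 was the lowest virgin array and replicate 2 or 4 the highest. Without replicates 2 and 4 the differences were -0.32 for Col12a1, -0.35 for Col9a2 and -0.15 for Col16a1, and the median of the class was 0.0033.

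Other FACIT chains did not follow these 3. Col9a1 was at 7.94, 7.85, 7.97 and 8.16 on parous and 7.99, 7.71, 7.57 and 7.37 on virgin arrays, a difference of 0.32 with an interval of 0.0096 to 0.63 (limma adjusted p = 0.422) and a single virgin array, replicate 1, among the parous values. The differences were -0.20 for Col14a1, -0.18 for Col9a3, 0.09 for Col20a1 and -0.01 for both Col19a1 and Col22a1, and the groups overlapped in each.

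The collagen gene with the largest difference was Col17a1, a transmembrane chain of the hemidesmosomes that tie basal epithelial cells to the basement membrane. Its log2 values were 8.41, 8.43, 8.41 and 8.17 on parous and 8.75, 9.09, 8.71 and 9.21 on virgin arrays. All parous values were below all virgin values, the difference was -0.59 ± 0.130 (interval -0.88 to -0.29) and lay at the edge of the 1.5-fold criterion, and the adjusted p of limma was 0.137. Without virgin replicates 2 and 4 the difference was -0.38.

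Markers of the basal cells that carry Col17a1 were measured on the same arrays. Over 9 basal and myoepithelial markers the median difference was -0.18 and none passed the criteria. The mean of their centred values was between -0.23 and -0.04 on parous and between 0.0030 and 0.26 on virgin arrays. Krt14, a basal keratin, was at 10.98, 10.89, 10.78 and 10.57 on parous and 11.24, 11.62, 11.45 and 11.92 on virgin arrays, so virgin replicate 4 was the highest and parous replicate 4 the lowest array, as for Col17a1. The same held for Krt5 and Trp63 but not for the other 6 markers, and Myh11 and Mylk, contractile genes of myoepithelial cells, were highest on parous replicate 3 and lowest on virgin replicate 4, with differences of 0.24 and 0.20. Krt14, with the largest difference of the list at -0.75, was at -0.54 without virgin replicates 2 and 4. The part of basal cell content in the result on Col17a1 was not tested. The other transmembrane chains were close to 0, at -0.08 for Col25a1, -0.05 for Col13a1 and 0.01 for Col23a1, and the groups overlapped in each.

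**Figure D3:**
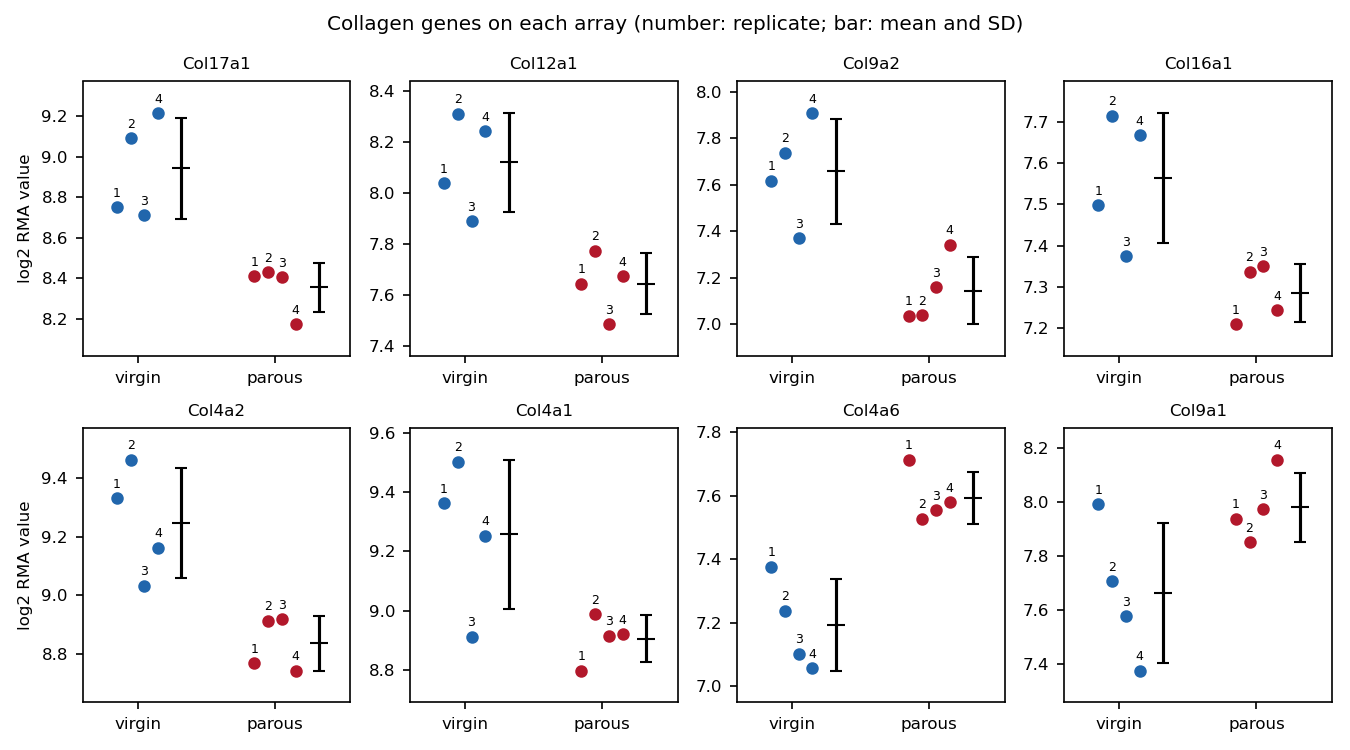
Log2 values (y axis, a scale of its own in each panel) of 8 collagen genes on the 4 virgin and 4 parous arrays, with the replicate number at each point and bars for the mean and SD. Col17a1, Col12a1, Col9a2, Col16a1 and Col4a2 are lower on every parous array and Col4a6 higher, while Col4a1 and Col9a1 overlap through 1 virgin array each.

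Type VI collagen forms beaded filaments around cells, and no gene of the class separated the groups. The differences of its 3 classical chains were 0.23 for Col6a1, 0.22 for Col6a2 and 0.23 for Col6a3, with intervals of -0.09 to 0.56, -0.17 to 0.61 and -0.14 to 0.60. Col6a1 was at 9.86, 9.94, 10.12 and 10.46 on parous and 9.90, 9.63, 9.96 and 9.96 on virgin arrays. Col6a2 was at 9.55, 9.76, 9.87 and 10.27 on parous and 9.57, 9.34, 9.78 and 9.87 on virgin arrays. Parous replicate 4 was the highest and virgin replicate 2 the lowest array of both. Col6a3 was at 9.08, 9.15, 9.38 and 9.78 on parous and 9.16, 8.86, 9.27 and 9.18 on virgin arrays, in the same way. Col6a4, Col6a5 and Col6a6 had differences of -0.13, -0.07 and 0.13 and were highest on virgin replicate 4, virgin replicate 1 and parous replicate 3. Virgin replicate 2 was the lowest virgin array in 6 of 6 genes of the class. The second probe set of Col6a5 gave -0.11 and that of Col6a6 gave 0.15.

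The remaining chains gave no separation of the groups. Col8a1, a short-chain collagen known from endothelium, varied most of all 44 genes, with a residual SD of 0.730. It was at 9.98, 9.94, 10.17 and 8.95 on parous and 10.64, 9.57, 9.93 and 8.54 on virgin arrays. Replicate 4 was the lowest of both groups, and the difference of 0.09 had an interval of -0.91 to 1.09. Over 12 endothelial markers the mean of the centred values was 0.03, 0.29, 0.24 and -0.16 on parous and 0.34, -0.10, 0.01 and -0.65 on virgin arrays. It was also lowest on replicate 4 of both groups. This order was not particular to endothelial markers. On parous and virgin replicate 4, lowest in each group, the mean was -0.03 and -0.56 for pericyte markers. It was -0.14 and -0.29 for adipocyte and -0.22 and 0.03 for luminal markers. The part of cell content in the spread of Col8a1 was not tested.

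Col8a2 was at 5.74, 6.07, 6.02 and 5.99 on parous and 6.24, 6.10, 6.04 and 6.08 on virgin arrays, with a difference of -0.16. Col10a1, the chain of hypertrophic cartilage, was at 5.89, 5.80, 6.06 and 6.17 on parous and 5.75, 5.88, 5.71 and 5.95 on virgin arrays, with a difference of 0.16. Both lay in the lower part of each array and their groups overlapped. The multiplexin Col18a1, the source of endostatin, was at 8.13, 8.09, 8.13 and 7.91 on parous and 8.37, 8.15, 8.10 and 8.21 on virgin arrays, a difference of -0.14 with an interval of -0.34 to 0.06. Col15a1, the other multiplexin, was at 9.05, 9.08, 9.20 and 9.23 on parous and 9.34, 8.99, 9.16 and 9.10 on virgin arrays, a difference of -0.01. Neither separated the groups. Col7a1, which anchors the basement membrane to the stroma, was at 6.76, 6.92, 7.06 and 7.26 on parous and 7.12, 7.27, 7.09 and 7.44 on virgin arrays, a difference of -0.23 with an interval of -0.52 to 0.06. Its highest parous array exceeded 2 virgin arrays, and the differences of Col28a1 and Col26a1 were 0.06 and -0.03.

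Because chains of 1 triple helix come from separate genes, the difference between the log2 values of partner chains was taken on each array for 19 pairs. The pairs were chosen after the values of single genes had been seen and share genes, so they are described without a test, and only the difference between groups has a meaning, not the level. In 4 of the 19 pairs, 21.1%, the groups did not overlap, as they did not in 10.9% of all pairs of genes. Col1a1 minus Col1a2, the chains of type I collagen, was 0.10, 0.00020, 0.06 and 0.0026 on parous and 0.32, 0.37, 0.21 and 0.21 on virgin arrays. Every parous value was below every virgin value, with a difference of -0.24 ± 0.0471 (SE), although neither chain separated the groups by itself. Col1a2 alone was at 9.87, 10.10, 10.23 and 10.63 on parous and 10.00, 10.06, 10.12 and 10.53 on virgin arrays, a difference of 0.03.

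Col4a5 minus Col4a6 was -0.39, -0.21, -0.22 and -0.22 on parous and 0.07, 0.12, 0.08 and 0.21 on virgin arrays, a difference of -0.38 ± 0.0547. The groups did not overlap. Col4a1 minus Col4a2, the pair whose promoter windows overlap, was 0.03, 0.08, -0.0022 and 0.18 on parous and 0.03, 0.04, -0.12 and 0.09 on virgin arrays. The groups overlapped, and the difference was 0.06 ± 0.0602.

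In type IX collagen Col9a1 minus Col9a2 was 0.90, 0.81, 0.81 and 0.81 on parous and 0.37, -0.03, 0.21 and -0.54 on virgin arrays. The groups did not overlap, and the difference of 0.83 ± 0.199 combined differences of opposite sign, 0.32 for Col9a1 and -0.52 for Col9a2. Virgin replicates 2 and 4 held the lowest values of this pair, and its difference without them was not taken. Col9a2 minus Col9a3 had a difference of -0.34 ± 0.0835, also without overlap. Among the 3 pairs of Col6a1, Col6a2 and Col6a3 the differences were between -0.0063 and 0.01. Without virgin replicates 2 and 4, the groups did not overlap in 4 of the 19 pairs. The share of all pairs of genes was not taken without these arrays, so this count has nothing to be set beside. Of single genes, 9.04% were then higher and 8.73% lower without overlap, against 4.61% and 4.95% with all arrays.

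**Figure D4:**
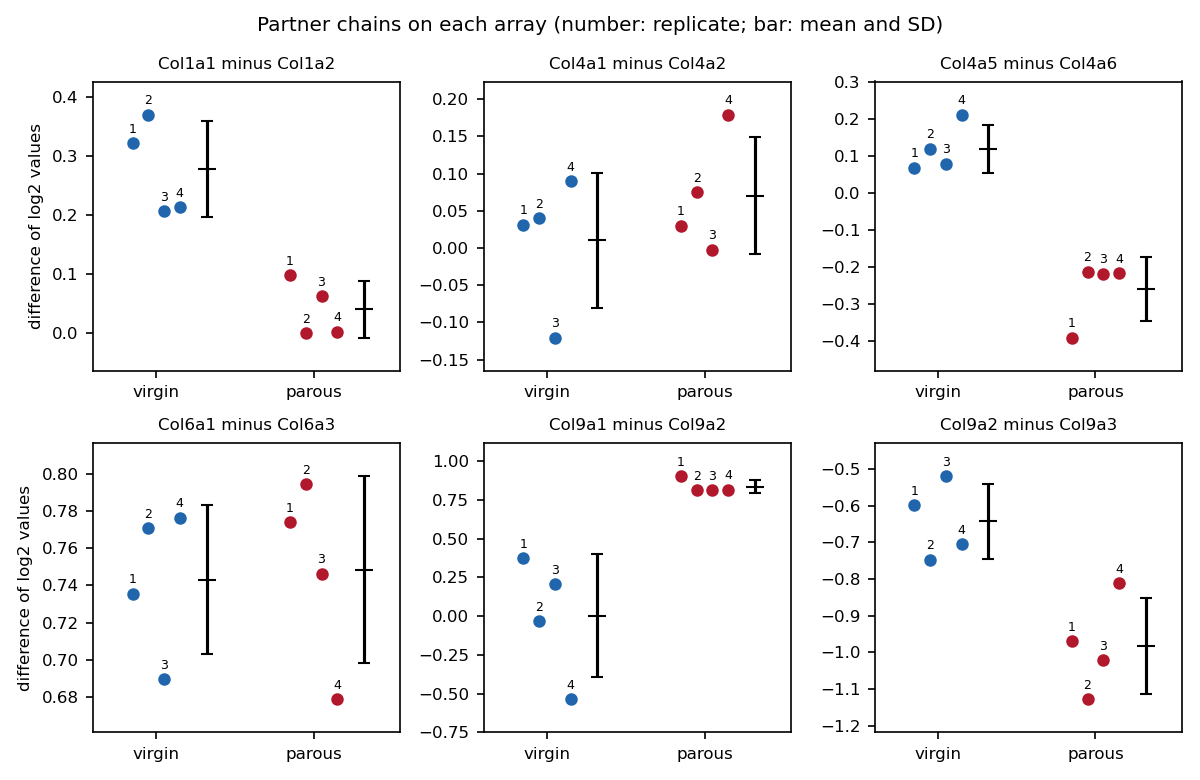
Difference of log2 values between partner chains of a collagen on each array (y axis, a scale of its own in each panel) for 6 of the 19 pairs, with the replicate number at each point and bars for the mean and SD of 4 arrays. The groups do not overlap for Col1a1 and Col1a2, Col4a5 and Col4a6, Col9a1 and Col9a2, and Col9a2 and Col9a3, and they overlap for Col4a1 and Col4a2 and for Col6a1 and Col6a3.

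The genes that make, process, bind and cleave collagen were described from lists in the same way. The 20 measured genes of chain folding and modification had a median difference of 0.05 and none passed the criteria. In this list Creb3l1, a transcription factor of collagen secretion, had a difference of 0.49 (limma adjusted p = 0.231), without overlap, and P4ha3, a prolyl hydroxylase subunit, one of 0.25. These were 0.30 and 0.11 without virgin replicates 2 and 4. The groups also did not overlap in P3h3, with a difference of 0.21, and in Plod1, with one of -0.15. Without these 2 arrays they were 0.17 and -0.15. Of 7 genes of propeptide processing none passed, with a median of 0.16. Pcolce2, an enhancer of the C-proteinase, was at 9.70, 10.11, 10.10 and 10.19 on parous and 9.19, 8.28, 9.60 and 8.60 on virgin arrays, a difference of 1.11 (limma adjusted p = 0.174), and Pcolce had a difference of 0.56. All parous values of Pcolce2 were above the virgin values, and its difference was 0.63 without virgin replicates 2 and 4.

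Of 4 cross-linking enzymes none passed, with a median of 0.46. Lox, the lysyl oxidase that starts the cross-links between fibrils, was at 9.29, 9.48, 9.69 and 9.88 on parous and 9.08, 8.39, 8.98 and 8.18 on virgin arrays, a difference of 0.92 (limma adjusted p = 0.165) without overlap, and Loxl1 had a difference of 0.54. That of Lox was 0.55 without virgin replicates 2 and 4. Of 9 collagen receptors none passed, with a median of 0.19. Ddr2, the receptor kinase for fibrillar collagen, had a difference of 0.85 (limma adjusted p = 0.137) and the integrin subunit Itga11 one of 0.84, both without overlap. They were 0.52 and 0.40 without virgin replicates 2 and 4, where the median of the receptor list was 0.0082.

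Of 15 fibril-associated proteoglycans and glycoproteins none passed, but their median was 0.63 and 9 of them had all parous values above the virgin ones, beside 4.61% of all genes. Tnxb, a tenascin that binds fibrils, was at 9.04, 9.18, 9.48 and 9.73 on parous and 8.59, 7.76, 8.66 and 7.99 on virgin arrays, a difference of 1.10 (limma adjusted p = 0.120). Podn, a small leucine-rich protein, was at 9.61, 9.68, 9.89 and 10.30 on parous and 9.07, 8.58, 9.20 and 8.32 on virgin arrays, a difference of 1.08 (limma adjusted p = 0.115). In both genes virgin replicates 2 and 4 were the lowest arrays. Without these arrays the median of the list was 0.28, with Tnxb at 0.73 and Podn at 0.74. The list was chosen with results of these data known and is not independent evidence of its direction.

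Of 9 collagen-cleaving enzymes 1 rose, beside 0.181% of all genes called higher. Ctsk, the cathepsin that cleaves the triple helix, was at 9.02, 9.19, 9.34 and 9.64 on parous and 8.41, 8.23, 8.55 and 8.53 on virgin arrays, a difference of 0.87 ± 0.140 (limma adjusted p = 0.0470). The groups did not overlap, and the difference was 0.82 without virgin replicates 2 and 4, but the call was lost with the replicate number as a block and on leaving out any 1 of the 8 arrays. The median of the list was 0.04. The groups also did not overlap in Mmp9, a gelatinase, with a difference of 0.99 (limma adjusted p = 0.308) that was 0.37 without virgin replicates 2 and 4, and in Mmp13, a collagenase, with one of -0.76 (limma adjusted p = 0.215) that was -0.78 without them.

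Fibroblasts are the main source of fibrillar collagen, and their markers were set beside the chains. All 16 fibroblast markers had a higher mean on parous arrays, with a median difference of 0.69 and none past the criteria, and 10 of them were without overlap on the higher side, beside 4.61% of all genes. The smallest of these differences was 0.05, for Fbln2. The median was 0.49 without virgin replicates 2 and 4, and 15 of the 16 had a higher mean on parous arrays, with Fbln2 at -0.03. The mean of their centred values was 0.10, 0.31, 0.32 and 0.57 on parous and -0.23, -0.72, -0.03 and -0.31 on virgin arrays, without overlap, while the corresponding mean of the 11 fibrillar collagens, given above, overlapped. On virgin replicate 4 the fibrillar mean was 0.27 and the marker mean -0.31. Dpt, Lum and Dcn are both in this list and in that of the fibril-associated proteins. Of other cells, 8 pericyte markers had a median of 0.36, 9 immune cell markers one of 0.24 and 8 luminal markers one of -0.14. It was 0.08 for 7 adipocyte markers, -1.49 for the 11 proliferation genes and 0.28 for 4 Schwann cell markers. Without virgin replicates 2 and 4 the medians were 0.05 for pericyte, -0.42 for immune cell and -0.15 for luminal markers. They were -0.01 for adipocyte markers, -0.44 for proliferation genes and 0.23 for Schwann cell markers. The adipocyte hormone Adipoq stood at 4.48 to 4.76 on all arrays, but Fabp4 and Pparg of the same list at 11.39 to 11.99 and 9.28 to 10.22. The part of stromal cell content in the results on collagens was not tested.

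**Figure D5:**
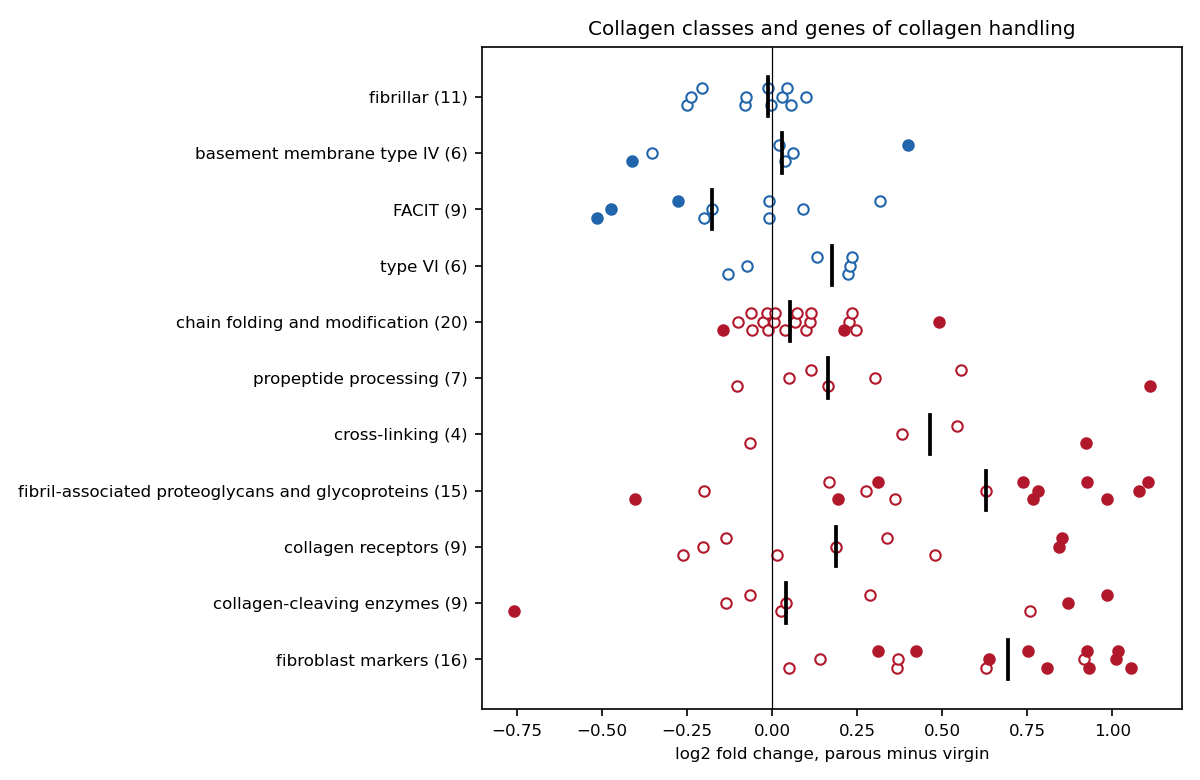
Log2 difference between parous and virgin means (x axis) for each gene of 4 collagen classes (blue) and of 7 lists of other genes (red), with the number of genes in brackets and a bar at the median. Filled points mark genes whose groups do not overlap, and the medians of the fibril-associated proteins at 0.63 and of the fibroblast markers at 0.69 lie to the right of that of the fibrillar collagens at -0.01.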

How the data were processed

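The deposited table holds log2 values, which the authors made from the array scans with rma() of the affy package (background correction, quantile normalization and summary to 1 value per probe set), per the methods and the submitters' processing notes (version of affy not given in these sources). No further normalization was applied. Probe sets were named through the array annotation and a table of current symbols: 21553 by gene identifier, 3 by accession and 84 by the symbol of the annotation. Another 1321 named several genes and 11799 none.

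The 4 parous and 4 virgin arrays were compared in R 4.3.3 with limma 3.58.1 (lmFit and eBayes, 2-sided, no covariate), and p-values were adjusted by Benjamini-Hochberg across the whole table of 34760. A gene passed, by the criteria of the study's methods, at a mean log2 value over 2 with an adjusted p below 0.05 and a linear fold over 1.5. Standard errors and 95% intervals of genes are those of limma, and those of chain pairs come from the arrays. Values were given per array for genes that passed, for genes without overlap and for up to 3 others per class with the largest differences, and in each other list for up to 2. Col4a5 and Col1a2, Col6a2 and Col6a3, and Krt5, Krt8, Myh11, Mylk, Fbln2, Adipoq, Fabp4 and Pparg were added, after their values were seen, for the comparisons with their partners or cells. P3h3, Plod1, Mmp9 and Mmp13 were also added after their values were seen, because their groups did not overlap. Pools of mice were counted as replicates. The test was tried on simulated data. Collagen genes, lists and pairs were chosen with earlier results of these data known. Alternatives covered array omission, scaling, the fit, filters, thresholds and the choice of probe set. Promoter sequences are those of RefSeq.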

Additional observations from a re-analysis of the deposited data

Results flagged for a closer look

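In 5 of the 88 groups of 4 arrays formed by the 44 collagen genes, 1 array lay far from the other 3 relative to the range of the group, where chance gives about 1 in 20 groups, or 4.4 of 88. Col5a1 was at 7.69 on virgin replicate 4, above 7.38 to 7.40 on the other virgin arrays. Col14a1 was at 10.93 on virgin replicate 4, above 10.41 to 10.47. Col9a3 was at 8.00 on parous replicate 1, below 8.15 to 8.18 on the other parous arrays. Col18a1 was at 7.91 on parous replicate 4, below 8.09 to 8.13. Col17a1 was at 8.17 on parous replicate 4, below 8.41 to 8.43.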

How the results depend on the processing

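No collagen gene passed the criteria under 22 of 23 alternatives. With an unadjusted p under 0.05 in place of the adjusted one, 1 of 44 did, Col17a1, lower. At that setting 535 of the 34760 probe sets were higher and 495 lower. The smallest adjusted p of a collagen gene ran from 0.0721, with the mean over the probe sets of a gene, to 0.374, without virgin replicates 2 and 4, and over all probe sets the methods' t-test left 6 higher and 5 lower, against 83 and 55 in limma. The study describes 4 independent experiments with 5 virgin and 5 parous mice in each, but the labels do not tie the replicate numbers to them. Same-numbered arrays deviated together with correlations of 0.115, 0.183, -0.0567 and 0.307, and differently numbered arrays with -0.256 to 0.191. These values do not settle whether the numbers pair the arrays, and the main fit left them unpaired. With the replicate number as a block 0 collagen genes passed, and 25 probe sets were higher and 24 lower. The median over collagen genes was -0.01 with the block, and between -0.08 and 0.02 on leaving out single arrays. Leaving out single arrays gave 1 to 3 collagen genes without overlap on the higher side, with 3 without parous replicate 1 and 2 without virgin replicate 1, and 5 to 9 on the lower side, with 8 without parous replicate 4 and 9 without virgin replicate 3, beside 5.16% to 7.55% of all genes higher and 5.36% to 9.0% lower at these settings. Without virgin replicates 2 and 4, 2 were higher, beside 9.04% of all genes, and 6 lower, beside 8.73%. After another quantile normalization 3 collagen genes were lower without overlap, and the share of all genes was not taken there. Partner pairs without overlap numbered 4 to 6 with arrays left out, and the share of all pairs of genes was not taken at these settings. Of 548 values of 24 collagen genes 14 changed sign. On leaving out single arrays Col15a1 ran from -0.063 to 0.053 (above 0 at 0.019 without parous 1, 0.0089 without parous 2 and 0.053 without virgin 1), Col25a1 from -0.16 to 0.026 and Col13a1 from -0.087 to 3.6e-05 (both above 0 without parous 1), Col26a1 from -0.093 to 0.061 (0.022 without parous 1, 0.061 without virgin 4), and Col8a1 from -0.29 to 0.41 (-0.047 without parous 3, -0.29 without virgin 4). Without virgin replicates 2 and 4 Col26a1 was at 0.10, Col5a2 at 0.0059 and Col8a1 at -0.53, Col15a1 was at 0.010 after another quantile normalization, and Col8a1 was at -0.025 with array weights. The median of type IV collagen was -0.17 without dim probe sets, that of types VIII and X -0.17 without virgin replicate 4, and that of FACIT -0.07. The median of the fibril-associated proteins was 0.43 without parous replicate 4, and that of the cleaving enzymes 0.26 without virgin replicate 1. Causes were not tested.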
